A study of Mus musculus with 6 samples.

Results

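The genes described here are 8 genes of Schwann cells and peripheral nerve, chosen by name with earlier results of these data known, out of 43280 rows in the table of raw counts per gene symbol. They are Mbp and Pmp22, which encode proteins of myelin, S100b and Cdh19, which mark Schwann cells, Ncam1 and L1cam, which encode adhesion molecules of axons and glia, Erbin, which encodes a scaffold protein that binds the receptor ErbB2, and Egr2, which encodes a transcription factor of myelination. All 8 were found in the table, Erbin under its older symbol Erbb2ip, and all 8 passed the filter of at least 10 counts summed over the 6 libraries. The libraries are RNA of whole submandibular glands (SMGs) of adult female mice, with 3 labelled WT (numbered 1, 4 and 5) and 3 labelled DKO (with the same numbers). DKO mice lack 2 enzymes that add 3-O-sulfate groups to heparan sulfate. By the study's methods they carry, on a C57BL/6 background, a frameshift deletion in exon 1 of Hs3st3a1, made with zinc finger nucleases, and a LacZ cassette in Hs3st3b1 on the same allele. Both genes were inactivated in the whole animal, and WT mice were described as littermates that carry neither change. The study kept several founders that differ in the size of the deletion, and the sources used here give neither the founder nor the exact age of the mice behind each library. The labels do not say that the 3 glands of a group came from separate mice, so the p-values measure the spread between these samples, which may be partly technical.

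Schwann cells are the glia of peripheral nerves. They wrap large axons in myelin, which holds proteins such as Mbp and Pmp22, or hold bundles of small axons without myelin. Neuregulin from axons acts on ErbB2 and ErbB3 of Schwann cells, and Sox10 together with Egr2 turns on the myelin genes. The SMG receives parasympathetic fibers from ganglia that lie beside and within the gland, sympathetic fibers and sensory fibers, so whole-gland RNA can hold nerve glia and the cell bodies of ganglion neurons. In whole-gland RNA, fewer cells of a type and less RNA per cell cannot be told apart.

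Library totals ranged from 23674258 to 29611975 counts. The raw counts of Hs3st3a1 were 15, 11 and 15 in WT and 11, 8 and 13 in DKO, and those of Hs3st3b1 were 173, 203 and 261 in WT and 255, 120 and 189 in DKO. Both genes overlapped between the groups. Gene counts include reads outside a short deletion or a cassette, so these counts do not check the genotype labels. By qPCR the study detected neither gene in adult DKO SMGs of males or females, a loss that these gene counts do not show. Across the 18606 rows tested, 539 had an adjusted p-value under 0.05 by the DESeq2 Wald test, with 189 higher and 350 lower in DKO.

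Because the row of Pmp22 has the smallest unadjusted p-value of the 8 genes, the DNA before its transcription starts is shown first. Pmp22 is known to be transcribed from alternative starts, of which one is used mainly by Schwann cells and another in many tissues, and the single count row adds them together. RefSeq lists 4 starts for it on chromosome 11 of GRCm38.p6, the first and the last 3821 bases apart. The 250 bases before the first start, chr11:63128732-63128981, and before the third, chr11:63132319-63132568, both on the plus strand, were those with the lowest and the highest GC content among the 3 windows that overlap no annotated exon. Every CpG is in capitals.
Pmp22, before the first start: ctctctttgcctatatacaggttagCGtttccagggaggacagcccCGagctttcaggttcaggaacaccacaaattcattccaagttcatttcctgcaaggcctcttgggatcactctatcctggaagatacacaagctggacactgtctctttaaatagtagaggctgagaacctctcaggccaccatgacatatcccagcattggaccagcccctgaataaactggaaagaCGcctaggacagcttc
Pmp22, before the third start: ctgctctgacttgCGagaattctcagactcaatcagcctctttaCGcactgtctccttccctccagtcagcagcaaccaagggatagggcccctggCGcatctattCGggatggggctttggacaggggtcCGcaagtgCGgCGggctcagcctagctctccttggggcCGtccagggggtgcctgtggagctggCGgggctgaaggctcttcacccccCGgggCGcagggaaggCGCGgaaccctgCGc
The first window was 48.8% GC with 3 CpGs, and the third was 64.8% GC with 14 CpGs. Over 32851 RefSeq windows of the same length the median was 52.4% GC and 6 CpGs. At least 14 CpGs were found in 29.4% of those windows. The reads counted for Pmp22 cannot be divided between these starts, so the values below are of all its transcripts.

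None of the 8 genes passed the adjusted threshold in DKO against WT, where 2.9% of all rows tested did (1.88% lower and 1.02% higher in DKO). In edgeR and limma-voom none of the 8 passed either, where 0.0537% and 0.0376% of all rows did. Pmp22 alone had an unadjusted p-value under 0.05, with each of the 3 tools, against 12.2% of all rows by DESeq2. The DKO libraries lay entirely below the WT libraries for 2 of the 8 genes, Pmp22 and Egr2, where 10.5% of all rows did, and entirely above for none, where 9.85% did (20.3% in either direction). The log2 fold change was negative for 6 of the 8 genes, and the median of the 8 was -0.20, beside 0.00 over all rows tested.

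**Figure D1:**
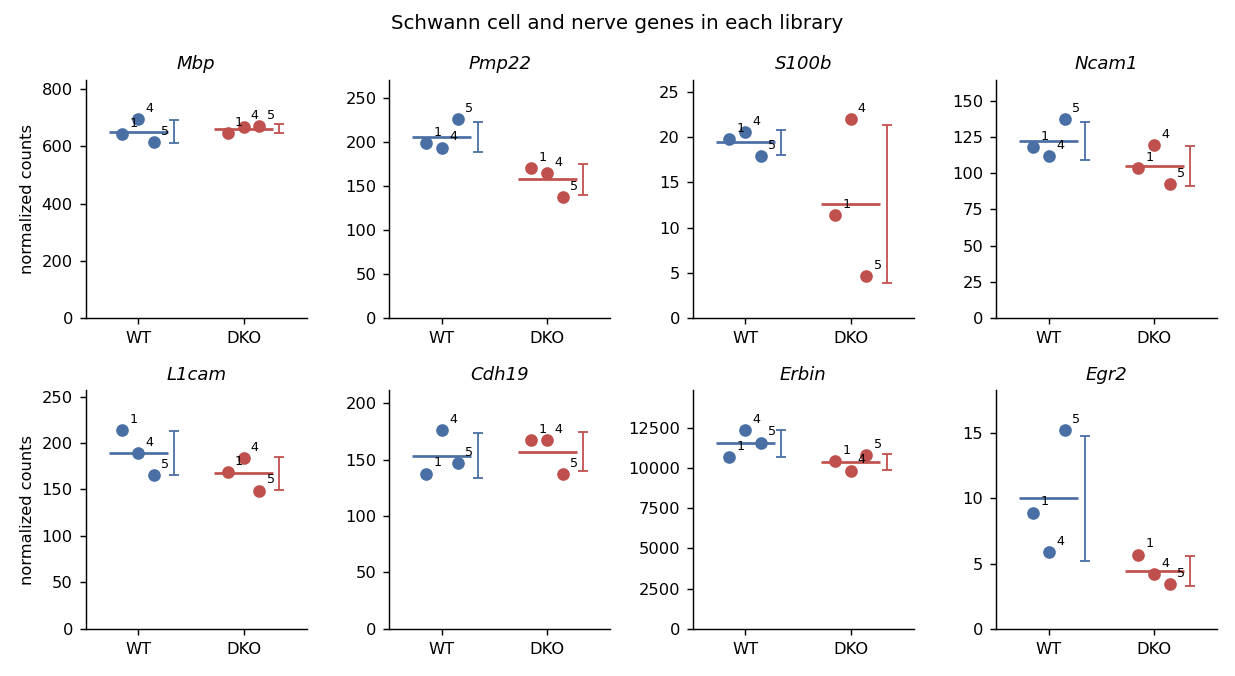
Normalized counts (y axis, from 0) of the 8 genes in the 3 WT libraries (blue) and the 3 DKO libraries (red), each point marked with its library number. Horizontal lines are group means and the bars beside them the SD over 3 libraries. Only Pmp22 and Egr2 have no overlap between the groups, and Egr2 has at most 17 raw counts in any library.

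The 2 genes of myelin proteins differed from each other in their values. Mbp, myelin basic protein, lies at chr18:82475146-82585637 on the plus strand (GRCm38, GENCODE M21). Its normalized counts were 643, 694 and 615 in WT and 645, 669 and 671 in DKO. The DKO libraries all lay within the range of the WT libraries. The means were 651 ± 39.6 and 662 ± 14.4 (SD, n = 3), with a log2 fold change of 0.02 (SE 0.11, 95% interval -0.20 to 0.25, DESeq2 adjusted p = 0.971).

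Pmp22, peripheral myelin protein 22, lies at chr11:63128982-63159547 on the plus strand. It had normalized counts of 199, 194 and 226 in WT and 171, 165 and 137 in DKO. All DKO libraries were below all WT libraries, with library 5 highest in WT and lowest in DKO. The means were 206 ± 17.2 and 158 ± 18.0, with a log2 fold change of -0.38 (SE 0.18, 95% interval -0.74 to -0.03). The DESeq2 p-value was 0.0356 before and 0.305 after adjustment over all rows, so Pmp22 did not pass the threshold. Leaving out each library in turn gave log2 fold changes from -0.44 to -0.29. With total counts in place of size factors the log2 fold change was -0.62 and the adjusted p = 0.0348, a setting in which the median of all rows moved to -0.23. Relative to that median, the difference of Pmp22 was close to the one given first.

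Pmp22 is also expressed outside nerve, including by fibroblasts. All 7 fibroblast genes listed (Col1a1, Col1a2, Col3a1, Dcn, Lum, Pdgfra, Pdgfrb) had negative log2 fold changes, with a median of -0.44. Among them Dcn and Pdgfra were called lower, with DESeq2 adjusted p-values of 0.0305 and 0.03, and neither was called in edgeR or limma-voom. Their summed normalized counts were between 11520 and 16200 in WT and between 8665 and 12260 in DKO. The part of these cells in the values of Pmp22 was not tested.

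S100b, a calcium-binding protein used as a marker of Schwann cells, lies at chr10:76253853-76261159 on the plus strand. Its normalized counts were 19.8, 20.5 and 17.9 in WT and 11.4, 21.9 and 4.61 in DKO. The WT libraries were close together, while DKO 4 was the highest and DKO 5 the lowest of all 6. The log2 fold change was -0.61 (SE 0.61, 95% interval -1.80 to 0.58, DESeq2 adjusted p = 0.779). It was -1.25 without DKO 4 and -0.22 without DKO 5, so a difference was not detectable at this depth and spread. S100b is also made by adipocytes and melanocytes. Of 8 adipocyte genes 4 were tested, and their summed normalized counts were between 563 and 731 in WT and between 568 and 651 in DKO. Most of that sum was Lipe and Fabp4, while Adipoq and Plin1, which define adipocytes, had 0 to 4 raw counts in every library. Of 6 melanocyte genes 2 were tested (Mitf and Pmel), with sums between 274 and 306 in WT and between 304 and 348 in DKO, while Dct, Tyr and Tyrp1, which define melanocytes, had 0 counts. The part of these cells in the values of S100b was not tested.

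Cdh19, a cadherin of Schwann cells and their precursors, lies at chr1:110888326-110977584 on the minus strand. It had normalized counts of 138, 176 and 147 in WT and 167, 167 and 137 in DKO. The groups overlapped over nearly their whole range. The log2 fold change was 0.04 (SE 0.20, 95% interval -0.35 to 0.43, DESeq2 adjusted p = 0.976), a width that leaves changes of either direction possible.

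Ncam1, the neural cell adhesion molecule of axons, non-myelinating Schwann cells and neuromuscular junctions, lies at chr9:49502136-49798925 on the minus strand. Its normalized counts were 118, 112 and 137 in WT and 103, 119 and 92.2 in DKO. DKO 4 lay above WT 1 and WT 4, and the other DKO libraries lay below all of WT. The log2 fold change was -0.22 (SE 0.22, 95% interval -0.65 to 0.22, DESeq2 adjusted p = 0.787). Of 8 skeletal muscle genes 5 were tested, with summed normalized counts between 48.5 and 60.7 in WT and between 49.1 and 51.9 in DKO. Most of that sum was Ckm, and the other genes tested were counted at lower levels. Of the 8 genes, 2 (Myh4 and Actn3) had 0 counts in all libraries. The part of muscle in the values of Ncam1 was not tested. Of the exon bases of Ncam1, 4.81% are shared with another gene, and reads there cannot be assigned by strand in these unstranded libraries.

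L1cam, an adhesion molecule of axons and non-myelinating Schwann cells, lies at chrX:73853778-73896105 on the minus strand. It had normalized counts of 214, 189 and 166 in WT and 169, 184 and 149 in DKO. The ranges overlapped, since DKO 1 and DKO 4 lay above WT 5. The log2 fold change was -0.18 (SE 0.19, 95% interval -0.55 to 0.19, DESeq2 adjusted p = 0.806). For L1cam the share of exon bases that overlap another gene is 1.36%.

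Erbin lies at chr13:103818787-103920514 on the minus strand. It had normalized counts of 10680, 12350 and 11580 in WT and 10420, 9833 and 10810 in DKO. DKO 5 lay just above WT 1, and the remaining DKO libraries lay below all of WT. The means were 11540 ± 836 and 10360 ± 493, with a log2 fold change of -0.16 (SE 0.09, 95% interval -0.34 to 0.02). The DESeq2 p-value was 0.0876 before and 0.479 after adjustment. With total counts in place of size factors the log2 fold change was -0.39 and the adjusted p = 0.00762, beside the same shift of all rows to -0.23. Erbin is used by many epithelia as well as by Schwann cells.

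Egr2, also known as Krox20, lies at chr10:67535475-67542188 on the plus strand. Its raw counts were 9, 6 and 17 in WT and 6, 4 and 3 in DKO. After normalization the WT libraries had 8.91, 5.87 and 15.2 and the DKO libraries 5.69, 4.18 and 3.46, so that the lowest WT library and the highest DKO library were nearly equal. The log2 fold change was -1.17 (SE 0.83, 95% interval -2.79 to 0.46, DESeq2 adjusted p = 0.618). It ranged from -1.43 without WT 4 to -0.72 without WT 5. Counts this low cannot show whether the factor changed.

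Egr2 is also made by activated lymphocytes. All 9 lymphocyte and plasma cell genes listed had negative log2 fold changes, and Cd8a, Cd4, Ms4a1 and Ighm were called lower by DESeq2 but not in edgeR or limma-voom. Their summed normalized counts were between 1576 and 5509 in WT and between 538 and 1640 in DKO. The lowest WT library of that sum was WT 4, which was also the lowest WT library of Egr2, while the highest was WT 1 for the sum and WT 5 for Egr2. Their part in the values of Egr2 was not tested.

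**Figure D2:**
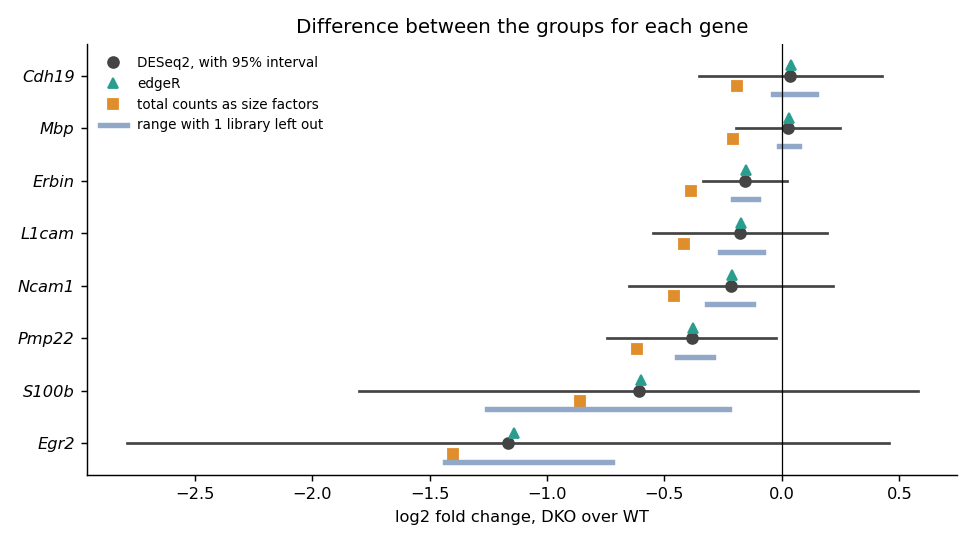
Log2 fold change of DKO over WT (x axis) for each of the 8 genes. Black points and lines are DESeq2 estimates with 95% intervals, triangles are edgeR estimates, squares are DESeq2 with total counts as size factors, and blue bars span the estimates with 1 library left out. The interval of Pmp22 alone does not reach 0, and the squares lie to the left of the black points for all 8 genes.

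Compared per length of exon, the 8 genes spanned a wide range of levels. Mean normalized counts per kb over the 6 libraries were 1379 for Erbin, 77.5 for Mbp, 77.3 for Pmp22, 36.3 for Cdh19, 24.3 for L1cam, 13.1 for Ncam1, 10.8 for S100b and 2.13 for Egr2. Erbin ranked 224 among the 17823 rows with a length, and its mean was 17.8 times that of Mbp. Mbp and Pmp22 could not be ordered, since their ranges overlapped and Mbp was higher in 3 of the 6 libraries. Per kb, Pmp22 was 87.6 ± 7.30 in WT and 67.0 ± 7.64 in DKO, while Mbp was 76.8 ± 4.68 and 78.1 ± 1.70. Pmp22 lay above Cdh19, Cdh19 above L1cam, and L1cam above Ncam1 in all 6 libraries with no overlap of their ranges. The ranges of Ncam1 and S100b overlapped. Those of S100b and Egr2 also overlapped, although S100b was higher than Egr2 within each of the 6 libraries.

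Forms of Mbp from a longer transcript, known as golli, are made by lymphocytes and other cells, and gene counts do not separate them from those of myelin. Mbp was between 72.7 and 81.9 per kb in all 6 libraries, and the part of such forms in its values was not tested.

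All 6 listed markers of Schwann cells, S100b, Cdh19, Sox10 and Erbb3 among them, were counted in every library, and none was called. Sox10, the transcription factor of the glial lineage, was between 367 and 408 per kb, and Erbb3, the neuregulin receptor, between 492 and 620. Both are also expressed by SMG epithelium and were above every myelin protein gene among the 8, so they do not measure the share of glia here.

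**Figure D3:**
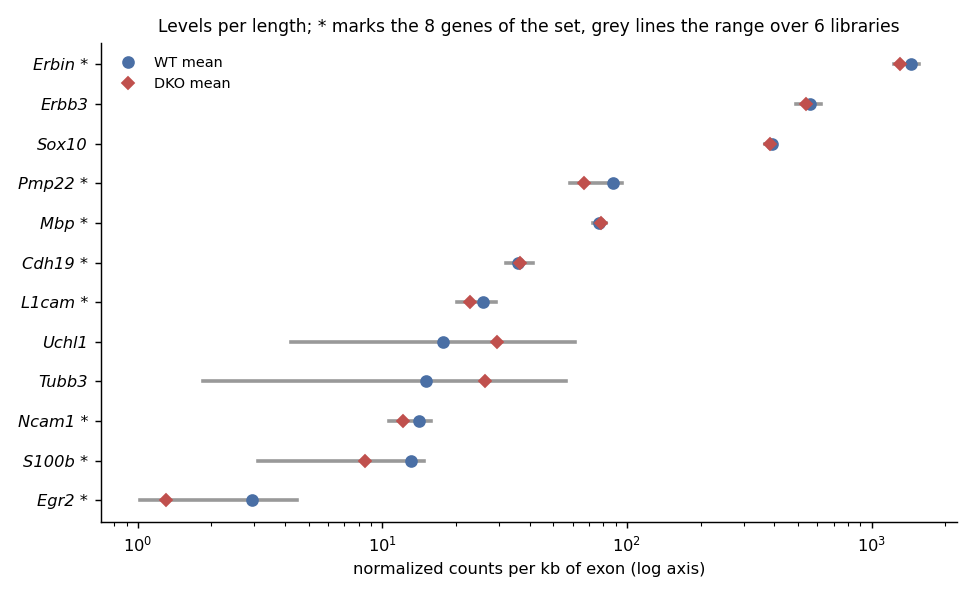
Normalized counts per kb of exon (x axis, log scale) of the 8 genes, marked with an asterisk, and of 4 marker genes of Schwann cells and neurons. Circles are WT means, diamonds DKO means, and gray lines the range over the 6 libraries. Erbin stands far above the other 7 genes, and the neuron genes Tubb3 and Uchl1 have the widest ranges.

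Genes that work with the 8 were taken from 9 lists that also hold the 8, with 117 genes in all, of which 103 were tested. Of the 103, 2 were called, Gjb1 among them, which is 1.94% beside 2.9% of all rows, and 14 had an unadjusted p-value under 0.05, or 13.6% beside 12.2%. The median log2 fold change of the 103 was 0.00. Gjb1, a gap junction protein of myelin that SMG epithelium also makes, had normalized counts of 1060, 1230 and 1120 in WT and 1370, 1700 and 1450 in DKO, and the log2 fold change was 0.40 with an SE of 0.12 (DESeq2 adjusted p = 0.0271). The groups of Gjb1 did not overlap, but its call was lost in edgeR, limma-voom, the fit scaled by total counts and the fit with a replicate block, and without WT 1, WT 5, DKO 4 or DKO 5.

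Among 18 myelin genes, 16 were tested, 8 with a positive and 8 with a negative log2 fold change, and the median was 0.00. Gjb1 was called, and Fa2h, an enzyme of myelin lipids, had a log2 fold change of -0.33 (adjusted p = 0.348). Among 16 genes of the Schwann cell lineage, all tested and none called, 11 were negative and the median was -0.13. Ngfr, the low-affinity neurotrophin receptor, had a log2 fold change of -0.36, with all DKO libraries below WT, and its DESeq2 p-value was 0.0116 before and 0.16 after adjustment. Sox10 and Erbb3 had -0.02 and -0.05.

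Around Erbin, 10 of 12 neuregulins, ErbB receptors and relatives were tested, 6 of them negative and none called, with a median of -0.05. Erbb3 and Erbb2, the pair that carries the neuregulin signal in Schwann cells, had log2 fold changes of -0.05 (95% interval -0.27 to 0.17) and -0.05 (95% interval -0.26 to 0.15). Egfr had -0.41 and a DESeq2 adjusted p of 0.0541, close to the threshold, but 0.194 in edgeR and 0.234 in limma-voom. With 1 library left out, its DESeq2 adjusted p ranged from 0.0136 (without DKO 1) to 0.453 (without WT 5). The ligand Nrg1 had a mean of 9.39 normalized counts, too few to compare.

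Among 9 regulators and partners of Egr2, 7 were tested, 5 of them negative and none called, with a median of -0.02. Nab1, a corepressor that binds Egr2, had a log2 fold change of 0.01, and Yy1, a factor that acts upstream of Egr2 in Schwann cells, had -0.17. Egr2 is also an immediate early gene, one of those induced within minutes of a stimulus such as dissection. Of 10 such genes 9 were tested, 5 of them negative and none called, with a median of -0.30, and Egr4 had 0 counts in all libraries. That median turned to 0.03 without WT 1, 0.24 without WT 4, 0.12 without WT 5, 0.04 without DKO 4 and 0.13 under a stricter filter of at least 10 counts in 3 libraries, and was -0.73 without DKO 5. Nr4a1, Arc and Junb had log2 fold changes of 0.43, -0.67 and 0.14, values of both signs, of which none passed the threshold.

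Among adhesion genes of axons and glia, Ncam1, L1cam and Cdh19 included, 16 of 16 were tested, with 9 positive, none called and a median of 0.06, which turned to -0.29 without DKO 4. Chl1, a relative of L1cam, had normalized counts of 271, 658 and 781 in WT and 1040, 745 and 620 in DKO, a wide spread with overlap, and Cadm4, an adhesion molecule of Schwann cells, had a log2 fold change of 0.25. Of 16 neurotrophic ligands and receptors 12 were tested, with 8 negative and a median of -0.21. Ret, the receptor of the GDNF family, had 0.61 (SE 0.52), and Pspn had 0 counts in all libraries. Of 11 genes of perineurium and endoneurium 10 were tested, with 6 negative, none called and a median of -0.02. Itga6, Etv1 and Sox9 had log2 fold changes of -0.12, 0.39 and -0.02, and all of these are also expressed by SMG epithelium.

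Genes of neurons varied far more between libraries than those of Schwann cells. Of 20 neuron and ganglion genes 17 were tested, and their summed normalized counts were 208, 197 and 128 in WT and 251, 665 and 48.4 in DKO. DKO 4 was the highest library for 15 of the 17 genes, where it was the highest for 25% of all rows, and DKO 5 was the lowest or tied for lowest for 15 of the 17, where it was so for 20.6% of all rows. Tubb3, the tubulin of neurons, was at 35.6, 30.3 and 18.8 in WT and at 38.9, 106 and 3.46 in DKO, in normalized counts. Uchl1, an abundant protein of neuron cell bodies, had 36.6, 29.3 and 20.6 in WT and 36.1, 100 and 6.92 in DKO. Vip, the neuropeptide of parasympathetic neurons of this gland, had 15.8, 14.7 and 2.69 in WT and 34.2, 117 and 3.46 in DKO. The same order of the DKO libraries was thus seen in genes of the cytoskeleton, the cell body and the transmitter. This order was noticed after the values were seen, and it was given no test.

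No neuron gene was called. Of the 17, 14 had a positive log2 fold change and the median was 0.65, which became -0.41 without DKO 4 and 1.08 without DKO 5. The direction of the list therefore rested on DKO 4. The fold change of Vip was 2.22 on the log2 scale with an SE of 1.31 (DESeq2 adjusted p = 0.483). Vip missed the threshold and was called without DKO 5, at 2.78 with an adjusted p of 0.02. Prph and Elavl4 had 0.46 and 0.65, with SEs of 0.71 and 0.92, and Npy had 0 counts in all libraries.

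S100b was the only one of the 8 genes with DKO 4 highest of the 6 libraries, and its lowest was DKO 5, the order seen in the neuron genes. DKO 5 was the lowest library for 6 of the 8 genes, beside 20.6% of all rows. Within DKO, library 4 exceeded library 5 by 4.76 times for S100b. Mbp did not follow that order, with 669 and 671 normalized counts in DKO 4 and DKO 5. The part of ganglion tissue in the values of S100b was not tested, and S100b was at 4 raw counts in DKO 5.

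**Figure D4:**
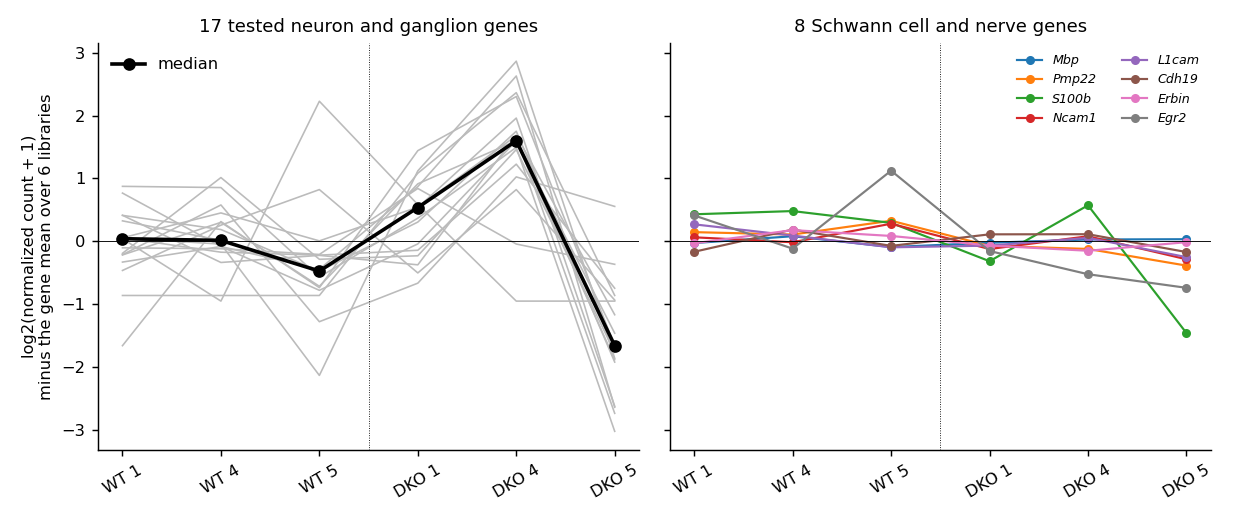
The log2 of the normalized count plus 1, minus the mean of each gene over the 6 libraries (y axis), in each library (x axis). At left are the 17 tested neuron and ganglion genes (gray) with their median (black), which peaks in DKO 4 and is lowest in DKO 5; at right are the 8 genes on the same scale, where S100b and Egr2 vary most and Mbp stays near 0.

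The remaining cell types moved in their own ways. Among myoepithelial cell genes 9 were tested, all 9 with negative log2 fold changes and 7 called lower, with a median of -0.74. Of 10 duct genes 4 were called lower, and of 8 acinar genes 3 were called higher. In edgeR and limma-voom the counts called were 0 and 0 for myoepithelial, 2 and 2 for duct and 1 and 1 for acinar genes. Among 6 endothelial genes 5 were positive and none was called, with a median of 0.21. Of 8 adipocyte, 8 skeletal muscle and 6 melanocyte genes, 4, 5 and 2 were tested and none was called, with medians of 0.00, -0.45 and 0.39. The median of the skeletal muscle genes turned to 0.15 without WT 4 and 0.04 without DKO 4. Many of the myoepithelial, duct and acinar genes were named by the study from these same libraries, so their counts are not independent evidence. The part of these cells in the values of the 8 genes was not tested.

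Pmp22 lies 726 kb from Hs3st3b1 and 1280 kb from Hs3st3a1, on the chromosome that carries both targeted genes. Within 1 Mb of Pmp22, 31 other rows were tested, 14 with a negative and 17 with a positive log2 fold change. The 13 of them with a mean of at least 50 normalized counts had log2 fold changes from -0.55 (Zfp287) to 0.29 (Cenpv), and none of these was called. Trim16, at 278 kb, lay lower in all DKO libraries, with 540, 591 and 617 raw counts in WT and 491, 422 and 442 in DKO (adjusted p = 0.39). Tvp23b, at 212 kb, lay higher once normalized, with a log2 fold change of 0.24 (adjusted p = 0.446). Trim16 and Tvp23b, on the same side of Pmp22, thus had values of opposite sign. On that side too, Trpv2, at 528 kb and with a lower mean of 37.35, had all DKO libraries below WT. Its log2 fold change was -1.05 (DESeq2 adjusted p = 0.145). Specc1, at 906 kb, also lay lower in all DKO libraries (-0.41, DESeq2 adjusted p = 0.369). Cox10, at 803 kb on the other side, lay higher in all DKO libraries (0.18, DESeq2 adjusted p = 0.753).

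Of these neighbors 3 were called, all higher in DKO and all annotated as processed pseudogenes. Gm12288, at 657 kb, had 0, 0 and 0 raw counts in WT and 100, 63 and 97 in DKO. Hmgb1-ps3, at 687 kb, had 2, 1 and 2 in WT and 40, 21 and 25 in DKO. Gm12287, at 440 kb, had 0, 0 and 0 in WT and 11, 11 and 10 in DKO. Their DESeq2 adjusted p-values were 3.54e-10, 8.87e-05 and 0.00389, in that order. Gm12287 was called in neither edgeR nor limma-voom, nor with total counts, no count filter, the stricter count filter or the replicate block, nor without DKO 1, DKO 4 or DKO 5. Hmgb1-ps3 lost its call in limma-voom. All 3 lie between Pmp22 and Hs3st3b1, which is at 726 kb from Pmp22. Reads of a pseudogene can also belong to its parent gene, and the part of such reads in these counts was not tested. No fold is given against libraries at 0. Hs3st3b1 itself had a log2 fold change of -0.04 (adjusted p = 0.976).

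**Figure D5:**
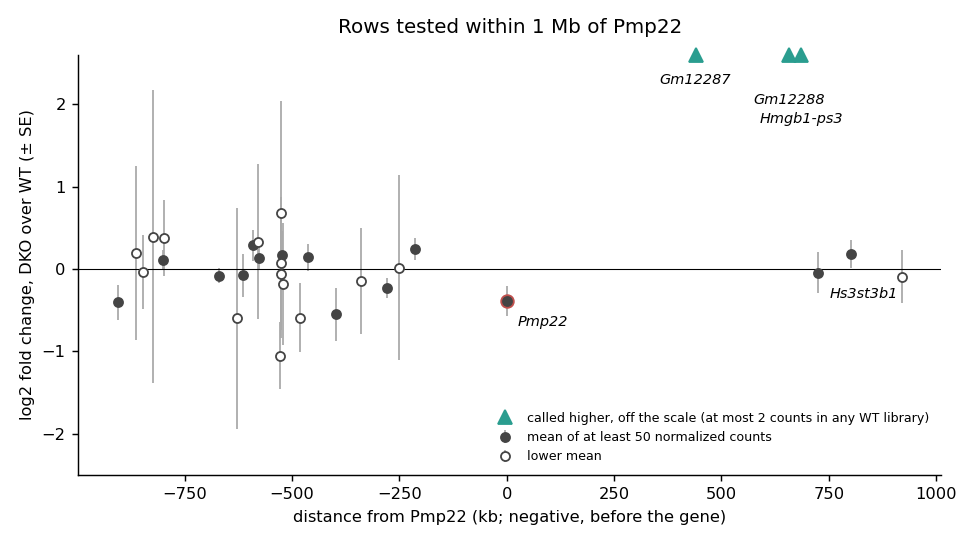
Log2 fold change of DKO over WT with its SE (y axis) of rows tested within 1 Mb of Pmp22, by distance from Pmp22 in kb (x axis). Filled points have a mean of at least 50 normalized counts, Pmp22 is the red point, and triangles at the top edge mark the 3 pseudogenes called higher, whose fitted fold changes are not drawn. Filled points lie between -0.55 and 0.29, on both sides of 0.

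Among rows with a mean of at least 50 normalized counts, 3 of the 8 genes varied enough over the 6 libraries to look for rows of a like pattern among 11488 rows. Likeness was the root mean square difference of log2(normalized count + 1) after centering each row. For Pmp22 the closest rows were Fmnl2, Inpp1 and Zfp74, at 0.0435, 0.0439 and 0.0458. For Ncam1 they were Tmem86a, Plin2 and Zfp747, at 0.0424, 0.0437 and 0.0495, and for L1cam Tmtc4, Ints2 and Nrp1, at 0.0347, 0.043 and 0.0432. None of these 9 rows is a gene of the nerve lists, and none was called in DKO against WT. The closest rows are the smallest of many differences over 6 libraries and are given as a description. Mbp, Cdh19 and Erbin spanned less than 0.5 on that scale, and S100b and Egr2 had too low a mean.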

How the data were processed

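Libraries were made with the unstranded Nextera XT kit and run on a HiSeq2500. The submitters' processing notes name STAR 2.5.2a, DESeq2, edgeR and limma, with the builds GRCm38, mm10 and GRCh38 and without their roles; the counting tool and annotation are not given in the sources used here. Raw counts per gene were taken from the unfiltered table that the authors deposited, and the filtered table and the table of scaled values were not used.

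Rows that reached 10 counts in the sum of all libraries were tested with DESeq2 1.42.0 in R 4.3.3, the tool named by the study. Size factors were medians of ratios and ranged from 0.867 to 1.12, the Wald test was two-sided, fold changes were not shrunk, and filters were left at their defaults. A row was called at a Benjamini-Hochberg adjusted p under 0.05 over all rows. No pair of libraries of a group agreed within sampling noise (chi-square per degree of freedom from 16.8 to 43.4), and each was used as 1 replicate. That spread cannot show whether the glands came from separate mice, since technical spread also adds to it. An exact permutation test of 3 against 3 cannot give a two-sided p under 0.1, so none was run. The steps were tested on simulated counts.

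The 8 genes and all lists were chosen with earlier results of these data known. From each list, the genes called were named and, if fewer than 3, those of highest mean up to 3 and those at 0 counts. Rows near Pmp22, the 3 rows of closest pattern and the cell type markers were named as well, while Erbb2 and Nrg1 were named after values were seen. Coordinates and exon lengths are of GENCODE M21 (GRCm38), matched by symbol for 39379 rows and by RefSeq synonym for 925. Normalized counts per kb were divided by all exon bases of a gene. Promoter windows of chromosome 18 were not used. RefSeq windows were used for 5 of the 8 genes. Some genes of the lists are counted in the lists' totals and not reported here by name.

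The alternatives comprised edgeR 4.0.16 (quasi-likelihood, TMM), voom in limma 3.58.1, size factors from TMM or from total counts, a fit without the filter on counts, a filter of 10 counts in 3 libraries, no independent filtering, a block for the replicate number, and fits that each leave out 1 library. The 95% intervals come from the Wald SE.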

Additional observations from a re-analysis of the deposited data

How the results depend on the processing

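The fold changes of the 8 genes were refitted in 111 combinations of gene and alternative. In 98 the direction and the side of the threshold were the same, in 5 the direction was the same but DESeq2 gave no adjusted p (Egr2 with total counts, with the replicate block and without WT 5, DKO 1 or DKO 4), in 2 a gene passed it, and in 6 the sign turned for a gene near 0. With total counts as size factors 2 of the 8 genes were called (Pmp22 and Erbin), 12 listed nerve genes in place of 2, and 5 rows within 1 Mb of Pmp22, itself included, in place of 3; that scaling moved the median of all rows to -0.23 and called 1410 rows lower and 62 higher, against 350 and 189. It turned Mbp to -0.21 and Cdh19 to -0.19, and it gave levels per kb of 83.7 (WT) and 72.3 (DKO) for Mbp, 95.6 (WT) for Pmp22, 14.3 (WT) for S100b and 1581 (WT) and 1210 (DKO) for Erbin. With 1 library left out, Mbp ranged from -0.014 (without WT 5) to 0.074, and Cdh19 from -0.036 (without WT 1) to 0.15, with -0.0092 without DKO 1 and -0.011 without DKO 4. Listed nerve genes called were 0 in edgeR and 0 in limma-voom, which called 10 and 7 of all rows, and rows called near Pmp22 were 2 in edgeR and 1 in limma-voom. Leaving out 1 library gave from 1 (without WT 1, WT 5 or DKO 4) to 7 listed genes called (without WT 4), with 4 without DKO 1. With the replicate number as a block, 0 of the 8 genes and 1 listed gene were called. The labels do not say that a number marks a shared litter or day, and the deviations of same-numbered libraries correlated at -0.13, -0.02 and -0.26, so the numbers were not taken as pairs, and no library correlated best with its own number. Egr2 could not be tested under the stricter count filter. The cause of these changes was not tested. Low counts limit what can be said of S100b and Egr2.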
